A study of Mus musculus with 1646 samples.

Results

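The 10 genes described here set the calcium signal of muscle cells: *Pln*, *Atp2a2*, *Ryr2*, *Ryr3*, *Itpr1*, *Cacna1c*, *Cacna1d*, *Cacna1h*, *Cacnb2* and *Casq2*. They were found by matching the Ensembl identifiers of the count table to gene symbols, and all 10 were among the 46517 genes of the table. In the mesenchymal cells of the mouse colon the 10 genes did not share a single pattern. *Pln* was high in the vascular smooth muscle cells (SMC) and near the fibroblast level in the SMC that lie outside vessels. By mean level *Casq2* was highest in those extravascular SMC, a rank that rests on 1 reporter line and was not called against vascular SMC. It was also present in a pair of fibroblast clusters. *Cacna1c* was high in all mural clusters and *Cacna1h* in both kinds of SMC, while *Cacna1d* was highest in fibroblasts of clusters 6 and 1.

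Each of the 1646 samples is 1 cell, sequenced with SmartSeq2 (full-length cDNA of a sorted cell), from male mice of 10 to 20 weeks on a C57Bl6/J background. The cells were sorted as CD31-negative, which leaves out endothelial cells, from 4 reporter lines, each with a fluorescent protein under control of the gene in its name. PdgfrbGFP gave 761 cells on 4 plates, Acta2GFP 567 on 2, PdgfraGFP 13.8% of all cells on 2 and Cspg4dsRED 91 cells on 1. The reporter decides which cells a line can yield, elastase was added for Acta2GFP tissue only, and the methods also mention combined strains, so line, sort and dissociation cannot be told apart. The labels give each cell 1 of 8 clusters, which the authors drew from these counts, so tests between clusters are not independent of how the clusters were made. Following the methods, clusters 1, 2, 5, 6 and 7 (1307 cells) were taken as fibroblasts and clusters 3, 4 and 8 (20.6% of all cells) as mural cells, the contractile cells of vessel walls and their relatives.

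Marker levels, in counts per 500000 gene counts averaged over lines, matched these classes. Cluster 4 was pericyte-like, with *Rgs5* at 3262, *Kcnj8* at 489 and *Abcc9* at 463.7. Cluster 3 was vascular SMC-like, with *Acta2* at 3588, *Myh11* at 1856 and *Notch3* at 329.6. None of these was highest there: *Acta2* and *Myh11* were at 5114 and 1891 in cluster 8, and *Notch3* at 705.5 in cluster 4. Cluster 8 was interstitial SMC-like, with *Hhip* at 1339, *Actg2* at 1667 and *Notch3* at 0.229. Cluster 2 was apex fibroblast-like (fibroblasts near the mouth of the crypts), with *Tnc* at 1972 and *Il1rl1* at 269.7. Immune and epithelial markers (2 genes each) summed to at most 1.54 in every cluster, and *Cdh5*, which defines endothelium, was below 1 in all 8, with *Pecam1* (CD31) at 5.80 to 12.9. The authors had already taken out cells without *Pdgfra* or *Pdgfrb* and cells with signatures such as endothelial or immune ones. These low levels were thus in part set by that filter. Gene counts per cell ran from 47598 to 1494292, and the cluster medians from 118252 in cluster 8 to 359677 in cluster 3. A level is the mean over the cells of a line, and a group is a line with at least 10 cells of a cluster, which gives 21 groups. Cluster 8 reached 10 cells only in Acta2GFP. In PdgfrbGFP the mural clusters reached 10 cells on 2 of the 4 plates, and most of its fibroblasts came from the other 2. No mouse is named in the labels, so p-values measure the spread between lines, and errors are SD over lines.

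A smooth muscle cell contracts when calcium enters through voltage-gated channels of the plasma membrane and leaves the sarcoplasmic reticulum, its internal store, through ryanodine and inositol trisphosphate (IP3) receptors. SERCA pumps return calcium to the store, phospholamban holds the pump back until it is phosphorylated, and calsequestrin binds calcium inside the store. *Pln* and *Casq2* are best known from the heart, and the cardiac muscle markers *Myh6* and *Tnnt2* were at or below 0.145 in every cluster here. *Acta1*, the skeletal muscle actin and the other striated muscle marker, was at 21.5 in cluster 3, 16.7 in cluster 8, 9.78 in cluster 4 and at most 2.73 in the fibroblast clusters.

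*Pln* and *Casq2* are shown with the sequence before their start because their mean levels over lines were highest in different SMC clusters. These were cluster 3 for *Pln* and cluster 8, with 1 line, for *Casq2*. The bases are those of RefSeq (GRCm38.p6) on the plus strand, *Pln* at chr10:53337436-53337666, which stops where the GENCODE gene begins, and *Casq2* at chr3:102086165-102086414. Capitals mark the E-box letters CANNTG and the letters TATAAA, both searched on either strand.
Pln: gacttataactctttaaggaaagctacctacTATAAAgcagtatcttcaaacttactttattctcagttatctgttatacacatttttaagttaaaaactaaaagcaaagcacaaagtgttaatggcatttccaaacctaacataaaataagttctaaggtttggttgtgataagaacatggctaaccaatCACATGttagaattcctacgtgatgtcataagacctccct
Casq2: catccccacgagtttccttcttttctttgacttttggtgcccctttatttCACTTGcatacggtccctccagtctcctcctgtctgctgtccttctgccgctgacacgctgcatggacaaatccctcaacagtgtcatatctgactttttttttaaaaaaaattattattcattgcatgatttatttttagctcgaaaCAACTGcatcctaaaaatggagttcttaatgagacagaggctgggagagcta
Over 250 bases, an E-box occurred in 66.2% of the 32851 RefSeq windows and TATAAA in 12.4%. The CArG box, a motif of smooth muscle genes, occurred in 1.47% of all windows and in none of the 10 windows found for 6 of the genes (*Pln*, *Casq2*, *Cacnb2*, *Cacna1c*, *Ryr2* and *Cacna1d*), and CATTCC in 12.6% and in none. Both windows were poorer in G and C than most, 32.8% for *Pln* and 41.6% for *Casq2* against a median of 52.4%. These matches describe letters and do not show sites.

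For each class, counts were added up within a line, and all genes were tested on these sums by the quasi-likelihood method of edgeR (Benjamini-Hochberg adjusted p, threshold 0.05). Between fibroblasts (4 lines) and mural cells (3 lines) all 10 genes passed the filter on low counts, and 5 were higher in mural cells: *Pln*, *Cacna1c*, *Casq2*, *Itpr1* and *Atp2a2*. None was called higher in fibroblasts, and all 10 fitted fold changes lay above 0. That of *Cacna1d*, 0.25 ± 0.85, did not hold inside plates of Acta2GFP and PdgfrbGFP, where mural cells were lower. Of all 19173 genes tested, 3.36% were higher in mural cells and 3.21% in fibroblasts. The median log2 fold change was 3.24 over the 10 genes and 0.03 over all genes. Between vascular SMC (3 lines) and pericytes (2 lines), *Pln* was the single gene of the 10 to pass, higher in vascular SMC, against 0.404% of 16328 genes higher in vascular SMC and 0.263% in pericytes. Between interstitial SMC (1 line, whose spread was taken from the other mural clusters) and vascular SMC, *Pln* alone passed again, lower in interstitial SMC, where 0.643% of genes were higher in vascular SMC and 0.398% in interstitial SMC. In that fit the median over all genes was -0.31, and the median over the 10 was -2.04. Between apex fibroblasts (3 lines) and the fibroblasts of clusters 1, 5 and 7 (4 lines), 9 of the 10 passed the filter, *Ryr3* being left out, and *Casq2* was higher in apex fibroblasts, against 3.5% of 15893 genes higher there and 3.76% higher in the other clusters. The mural fits share cluster 3, and the fibroblast fits share cells, so these comparisons are not independent of each other.

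**Figure D1:**
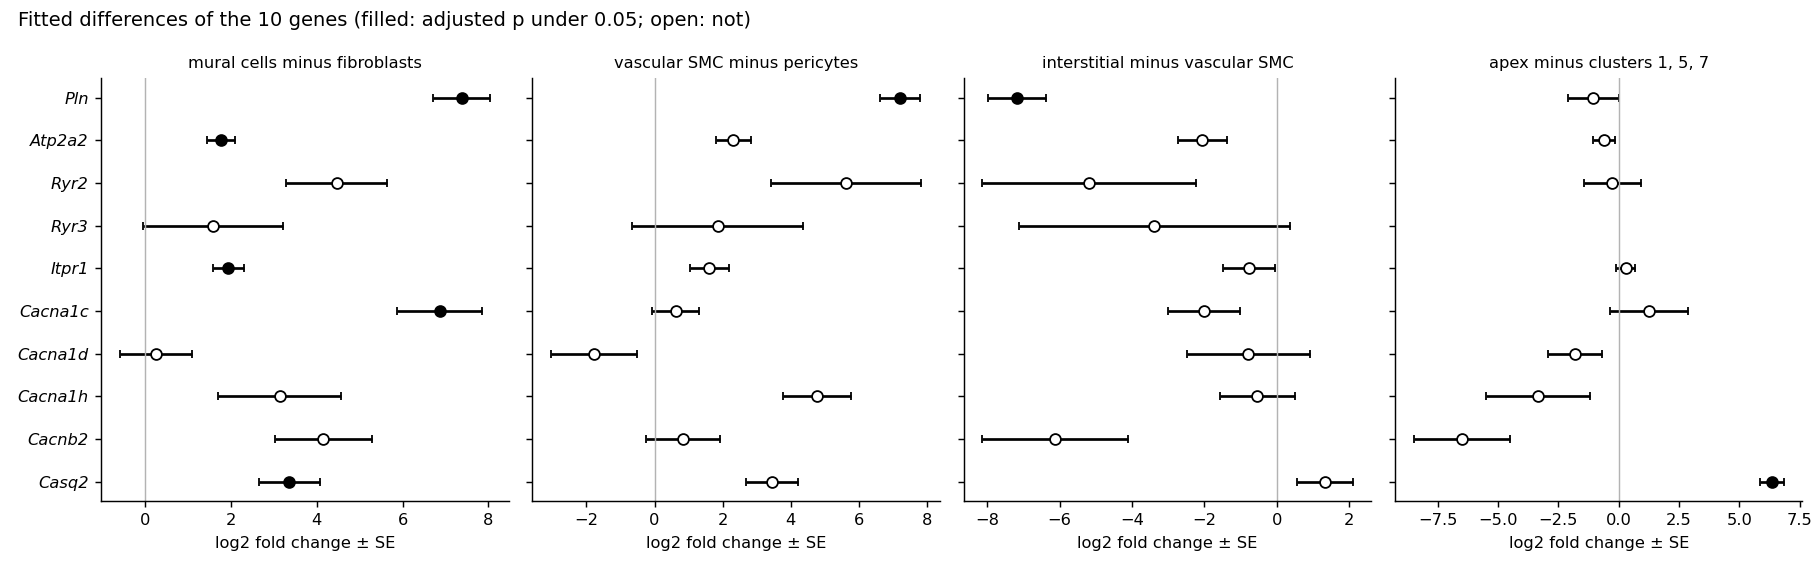
Log2 fold change ± SE from edgeR for the 10 genes (rows) in the 4 comparisons (panels), with filled points for an adjusted p under 0.05 and open points for the rest; each panel has its own horizontal scale and *Ryr3* has no point in the last. *Pln* lies at 7.37 and 7.21 in the first 2 panels and at -7.17 in the third, and *Casq2* at 6.36 is the filled point of the fourth.

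*Pln* encodes phospholamban, the brake on the SERCA pump. In vascular SMC its level was 698 in Acta2GFP, 517 in PdgfrbGFP and 432.4 in Cspg4dsRED, a mean of 549 ± 135.6 (SD, n = 3). In pericytes it was 9.55 in PdgfrbGFP and 3.38 in Cspg4dsRED, and in interstitial SMC it was 2.55. Every vascular SMC value lay far above every other group, and no fibroblast group passed 20.0. The log2 fold change of vascular SMC over pericytes was 7.21 ± 0.58 (SE, edgeR adjusted p = 0.000625), and that of interstitial over vascular SMC was -7.17 ± 0.80 (edgeR adjusted p = 0.00277). The first was 6.31 with an adjusted p of 0.0526 when means per cell were tested with limma, a test that called 0 of all genes in this comparison, although 1717 of 16328 had an unadjusted p under 0.05. The second rests on 1 interstitial SMC line, so its p borrows the spread of the other mural clusters. The contrast also held inside single plates. On the 3 plates with both clusters, *Pln* was higher in cluster 3 than in cluster 4 by 5.18 to 6.63 on the log2(level + 1) scale. On the 2 Acta2GFP plates with clusters 3 and 8, cluster 8 lay lower, with differences of -8.67 and -6.18. Interstitial SMC cells were shallower than vascular SMC cells (medians 118252 and 359677 counts), so shares of cells were also taken after thinning each cell to 50000 counts.

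*Pln* was a property of nearly every vascular SMC. After thinning, a *Pln* count was present in 92.9% of 140 cells of cluster 3 (95% Clopper-Pearson interval 87.3 to 96.5%, counting error only), in 30% of 140 cells of cluster 4 (22.6 to 38.3%) and in 9.26% of 54 cells of cluster 8 (3.08 to 20.3%). Unthinned, these shares were 96.5, 68.3 and 23.2%. The share in cluster 8 lay inside the range of the fibroblast clusters, 3.82 to 15% thinned. By level, cluster 8 was at 0.790 and 8.40 on the 2 Acta2GFP plates, against 0.319 to 1.35 and 2.27 to 3.54 in the fibroblast clusters of the same plates. Among fibroblasts the thinned share differed by plate, from 1.30 and 5.63% on the PdgfraGFP plates, which held no cluster 3 cell, to 22.1% on an Acta2GFP plate with 18 such cells and 15.4% on a PdgfrbGFP plate with 42. It was 3.57% on the Cspg4dsRED plate, which held 30 cluster 3 cells. The part of other wells in these low counts was not tested. The median *Pln* level was 521 in cluster 3, 2.38 in cluster 4 and 0 in cluster 8, so the pericyte counts were low. They were found in most pericytes only before thinning. Pericytes came mostly from plates other than those of cluster 8, so these medians also compare plates. On the plates with at least 10 pericytes, the fibroblast median was 1.14 on a PdgfrbGFP plate and 0 on the rest.

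Over all mural cells *Pln* was at 242.6 in Acta2GFP, 207.7 in Cspg4dsRED and 228.3 in PdgfrbGFP, against 0.671 to 4.11 in the 4 fibroblast lines. The groups did not overlap, and the log2 fold change was 7.37 ± 0.67 (edgeR adjusted p = 0.000463), past the threshold in all 11 alternatives. The mural sum of Acta2GFP held mostly cells of clusters 3 and 8, with 3 of cluster 4, and that of PdgfrbGFP mostly cells of clusters 3 and 4, with 4 of cluster 8, so the lines differ in which clusters this class value averages. The PdgfraGFP fibroblast value of cluster 6, 20.0, came from 1 cell of 26, with 519 counts per 500000, and the other 25 cells were at 0. Exons of *Pln* (GRCm38, chromosome 10, 53337667 to 53345987, plus strand, 3 merged exons) share 5.11% of their bases with *Cep85l* on the other strand, and no source used here says whether strand was used in counting. *Sln*, for sarcolipin, the other small inhibitor of the pump, was at 0 in every group.

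*Atp2a2* (chromosome 5, 122453513 to 122502225, minus strand) encodes SERCA2, the pump that phospholamban restrains. It was present in all clusters, at 350.5, 500.3 and 282.9 in vascular SMC (mean 377.9 ± 111.3, n = 3), 112.99 to 139.04 in cluster 6, 104.3 in interstitial SMC and 65.3 to 76.03 in pericytes. The vascular SMC values stood clear of all other groups of at least 10 cells, while pericytes (70.7 ± 7.6, n = 2) overlapped clusters 5 and 7. In the 9 PdgfrbGFP cells of cluster 6, too few for a group, *Atp2a2* was at 275.2, with a count in all 9. That lay just below the lowest vascular SMC line (282.9) and above single vascular SMC plates at 270.5 in PdgfrbGFP and 271.9 in Acta2GFP. By class, mural lines were at 188.005, 278.1 and 158.3 and fibroblast lines at 55.9, 61.5, 61.7 and 77.7. No mural line fell into the fibroblast range, and the log2 fold change was 1.76 ± 0.33 (edgeR adjusted p = 0.0134). Without Acta2GFP it was 1.67 with an adjusted p of 0.0794, and without PdgfrbGFP 1.96 with 0.0713. On the PdgfrbGFP plates where the mural clusters reached 10 cells, the classes hardly differed, at 177.5 against 154.05 and 153.5 against 170.5 in fibroblasts. On the other plates of Acta2GFP and PdgfrbGFP with both classes, mural cells were higher by 1.24 to 2.05 on the log2(level + 1) scale. Vascular SMC exceeded pericytes by 2.31 ± 0.51 with an adjusted p of 0.0733, which misses the threshold in edgeR; with the line as a block it was 2.38 and passed (0.0133). The 3 within-plate differences of vascular SMC over pericytes were 1.89, 2.35 and 2.70.

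*Atp2a3* encodes SERCA3, another pump of the reticulum. Per kilobase of exon, *Atp2a2* carried 51.2 ± 5.6% of the SERCA level in vascular SMC, 46.1 ± 11.1% in pericytes and 42.5 ± 14.5% in apex fibroblasts, with nearly all of the rest from *Atp2a3*. In clusters 1, 5 and 7 it carried 87.7 to 97.2%, and in interstitial SMC 75.3%. The skeletal muscle pump *Atp2a1* was at 0.67% or less. *Pln* per kilobase was 4.39 times *Atp2a2* in vascular SMC of Acta2GFP, 4.03 times in PdgfrbGFP and 1.90 times in Cspg4dsRED. It was 0.0980 and 0.322 times in pericytes, 0.0538 in interstitial SMC and at most 0.389 in any fibroblast group. Per kilobase *Pln* thus exceeded *Atp2a2* in the 3 groups of cluster 3 and in no other of the 21. Against all SERCA genes summed, *Pln* was higher in Acta2GFP (252.9 against 100.2 per kilobase) and PdgfrbGFP (187.3 against 94.7) but not in Cspg4dsRED (156.7 against 175.8).

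**Figure D2:**
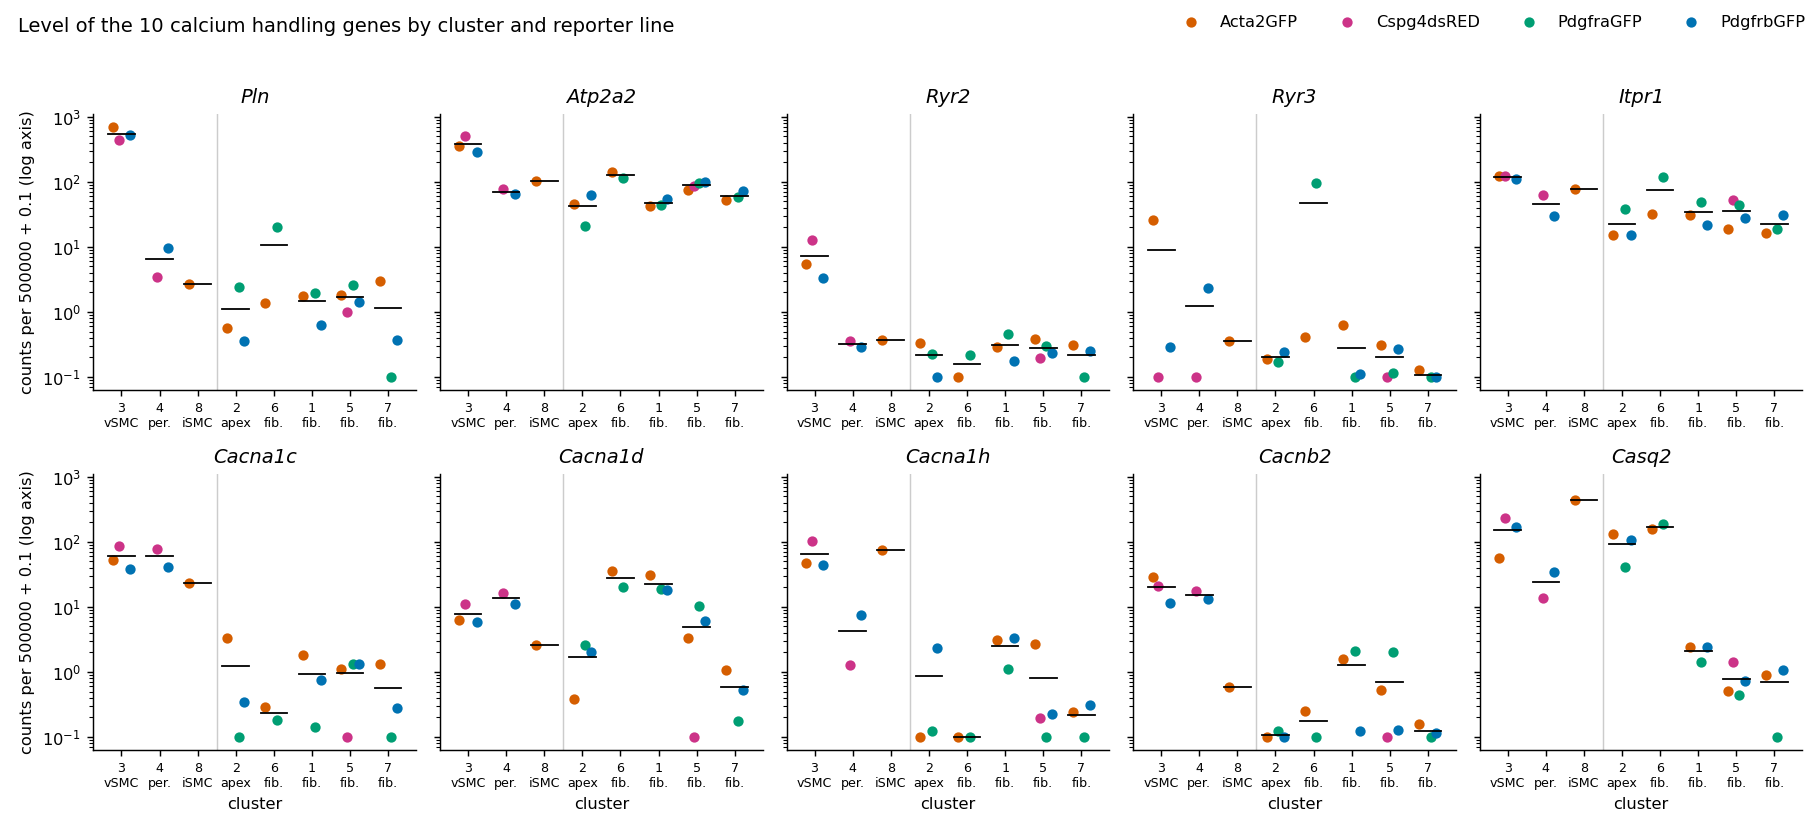
Level of each gene (panels) by cluster (horizontal axis: vSMC, vascular SMC-like; per., pericyte-like; iSMC, interstitial SMC-like; fib., fibroblasts), in counts per 500000 plus 0.1 on a log axis; points are reporter lines with at least 10 cells and bars their mean, and the grey line parts mural cells from fibroblasts. *Pln* stands at 432.4 to 698 in cluster 3 alone, whereas *Casq2* is at 440 in cluster 8 and at 41.1 to 186.8 in clusters 2 and 6.

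*Casq2* (chromosome 3, 102086415 to 102146514, plus strand) encodes cardiac calsequestrin, which binds calcium inside the reticulum. Its level was 440 in interstitial SMC, 228.3, 170.4 and 55.98 in vascular SMC of Cspg4dsRED, PdgfrbGFP and Acta2GFP, and 13.4 and 33.8 in pericytes. It was 129.3, 105.8 and 41.1 in apex fibroblasts and 155.7 and 186.8 in cluster 6, but at most 2.33 in clusters 1, 5 and 7. By line, cluster 8 was thus highest, but with 1 line only. Cluster 3 overlapped both cluster 6 and the lower cluster 2, and the remaining fibroblasts lay lowest. Within Acta2GFP, the line that gave both SMC clusters, cluster 8 was above cluster 3 on each plate, 509 against 42.5 and 210 against 64.2. The 210 lay below vascular SMC of Cspg4dsRED (228.3) and of a PdgfrbGFP plate (255.1), and below cluster 6 on a PdgfraGFP plate (255.95). Over all lines the log2 fold change of interstitial over vascular SMC was 1.32 ± 0.77 (edgeR adjusted p = 0.741), so the fit did not separate them. Without Cspg4dsRED it was 2.10 with an adjusted p of 0.00236, in a fit with 1 interstitial SMC line and 1 pericyte line where calls over all genes rose from 1.04 to 4.42%. Vascular SMC exceeded pericytes by 3.44 ± 0.76, with an adjusted p of 0.0740 that became 0.0233 with the line as a block.

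In fibroblasts *Casq2* was the 1 gene of the 10 called. Apex fibroblasts averaged 92.1 ± 45.7 (n = 3) and clusters 1, 5 and 7 1.12 ± 0.30 (n = 4). All apex values exceeded all others, and the log2 fold change was 6.36 ± 0.49 (edgeR adjusted p = 0.000217), past the threshold in 11 of 11 alternatives. The 6 smooth muscle markers summed to 102.2 to 321.4 in apex fibroblasts, a range that overlapped cluster 1 (117.7 to 330.5), while cluster 6 reached 591 to 1781. *Kit*, a defining marker of interstitial cells of Cajal, was at 0.503 in cluster 2 and 0.0198 in cluster 6, whereas *Ano1*, shared with that cell type, was at 170.8 and 27.3. *Casq2* was not uniform there: a count was present in 29.8% of apex cells after thinning (22.1 to 38.4%) and in 46.7% of cluster 6 (31.7 to 62.1%), against 4.95 to 9.36% in clusters 1, 5 and 7. The 5 highest apex cells gave 41.1% of their summed level. Mural cells together exceeded fibroblasts by 3.36 ± 0.71 (edgeR adjusted p = 0.0215), at 292.005, 115.7 and 99.9 against 6.23 to 32.1. That call was lost without Acta2GFP (adjusted p = 0.147), Cspg4dsRED (0.0727) or PdgfrbGFP (0.113).

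*Pln* and *Casq2* were combined differently in the 3 mural clusters. In cluster 3, 60 of 140 thinned cells held counts of both and 70 of *Pln* alone, with 4 of *Casq2* alone. In cluster 8 the order turned: 34 of 54 cells held *Casq2* alone, 5 held both and 0 held *Pln* alone. Most pericytes, 81 of 140, held neither. These cells are pooled over lines that differ. Unthinned, a *Casq2* count was present in 9 of 29 Acta2GFP, 14 of 30 Cspg4dsRED and 64 of 82 PdgfrbGFP cells of cluster 3. In cluster 8, where 52 of 56 cells were Acta2GFP, 38 of those 52 held a count. Per kilobase, *Casq2* was 9.37 times *Atp2a2* in interstitial SMC and 3.76 to 6.37 times in apex fibroblasts, but 0.355 to 1.34 times in vascular SMC. *Casq1*, the skeletal muscle form, carried 11.3% of the calsequestrin level per kilobase in cluster 3 and at most 1.32% in the others except cluster 7. There it took 52.5 ± 50.2% of a low sum, with *Casq1* at 2.35 and *Casq2* at 0.217 per kilobase.

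**Figure D3:**
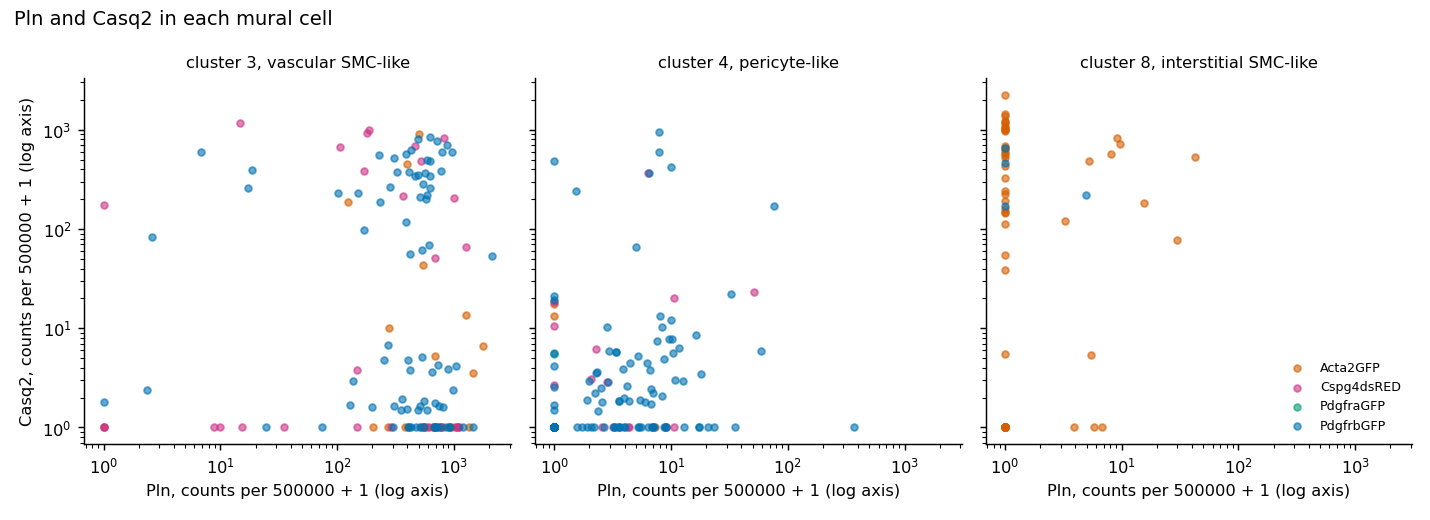
Each point is 1 mural cell, by *Pln* (horizontal) and *Casq2* (vertical) in counts per 500000 plus 1 on log axes, coloured by reporter line, with a panel per cluster. Cluster 3 lies to the right (median *Pln* 521), split between cells with and without *Casq2*, and cluster 8 lies along the left edge (median *Pln* 0, median *Casq2* 221.2).

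Calcium enters smooth muscle mainly through L-type channels. *Cacna1c* (chromosome 6, 118587240 to 119196418, minus strand) encodes their main pore, Cav1.2, and was at 53.1, 87.4 and 38.2 in vascular SMC, 78.3 and 41.4 in pericytes and 23.04 in interstitial SMC. Vascular SMC and pericytes overlapped throughout, and their difference was 0.62 ± 0.70 (edgeR adjusted p = 0.850). All fibroblast groups were at 3.20 or lower, below the lowest mural group. The mural lines, at 33.3, 82.6 and 39.2, exceeded the fibroblast lines, at 0 to 1.52, by 6.86 ± 1.00 (edgeR adjusted p = 0.00396), a call lost only without PdgfrbGFP (0.0517). A *Cacna1c* count was present in 53.2% of cluster 3 cells, 43.7% of cluster 4 cells and 32.1% of cluster 8 cells, and in 4.44 to 9.16% of cells in the fibroblast clusters.

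*Cacna1d* (chromosome 14, 30039939 to 30491455, minus strand), for the Cav1.3 pore that opens at lower voltages, had another order. Its level was highest in cluster 6 (35.7 and 19.9) and cluster 1 (30.99, 18.9 and 18.1), which overlapped. In cluster 6 the median cell was at 0, the 5 highest cells gave 94.2% of the sum, and within PdgfraGFP the plates were at 36.3 and 0.772. Pericytes followed at 16.4 and 11.1, then vascular SMC at 5.82 to 10.8, and interstitial SMC at 2.47. The highest value of both pericytes and vascular SMC, that of Cspg4dsRED, came from 2 cells, and a count was present in 7.86% of thinned cells in both clusters, so their order rests on few cells. Cluster 5 spread from 0 to 10.3, and clusters 2 and 7 lay at 2.51 or below. Over whole classes, the log2 fold change of mural cells over fibroblasts was 0.25 ± 0.85 (edgeR adjusted p = 0.926), and its sign turned in 3 alternatives. Inside plates of Acta2GFP and PdgfrbGFP mural cells were lower, with differences of -1.98 to -0.59 on the log2(level + 1) scale. In Cspg4dsRED, on 1 plate, they were higher, at 13.7 against 1.77. Per kilobase, *Cacna1c* carried 81.99 ± 2.06% of the L-type pore level in vascular SMC, 71.5 ± 3.6% in pericytes and 83.8% in interstitial SMC, and *Cacna1d* nearly all of the rest. In cluster 1 *Cacna1d* carried 98.1 ± 1.5% and in cluster 6 99.2 ± 0.7%. *Cacna1s* and *Cacna1f*, the pores of skeletal muscle and retina, stayed at or below 1.28% in every cluster.

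*Cacna1h* (chromosome 17, 25374285 to 25433783, minus strand) encodes Cav3.2, a T-type pore that opens near the resting potential. It was at 75.4 in interstitial SMC and at 47.2, 101.5 and 43.4 in vascular SMC, against 1.18 and 7.29 in pericytes. The SMC clusters overlapped each other, and both lay above all pericyte and fibroblast groups, where the highest group was a pericyte one. The fitted difference of vascular SMC over pericytes was 4.77 ± 0.99, with an edgeR adjusted p of 0.0582, and it passed in 5 of 10 alternatives. Within plates it was 5.55, 4.39 and 1.11. Between interstitial and vascular SMC the sign turned in 4 of 9 alternatives around -0.54 ± 1.03. For mural cells over fibroblasts the change was 3.13 ± 1.44 (edgeR adjusted p = 0.262). In Cspg4dsRED, the fibroblast level of 12.2 came almost wholly from 1 of 28 cells, and without that line the difference was 5.64 with an adjusted p of 0.0480. In cluster 6 none of 45 cells held a count, which allows a share of cells with a count, not of cells that express the gene, of up to 6.67% by 3 counts of the total, or 7.87% by the upper Clopper-Pearson limit. *Cacna1g*, the Cav3.1 pore, made up at least 99.9% in that cluster of the T-type level per kilobase, against 26.7 ± 7.3% in vascular SMC and 0.205% in interstitial SMC.

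*Cacnb2* (chromosome 2, 14603088 to 14987908, plus strand) encodes a beta subunit that brings L-type pores to the membrane. It was at 28.2, 20.6 and 11.3 in vascular SMC and 17.4 and 12.9 in pericytes, but 0.487 in interstitial SMC and at most 2.03 in any fibroblast group. Vascular SMC and pericytes overlapped, and interstitial SMC fell among the fibroblasts. On the 2 Acta2GFP plates the level was 53.9 and 12.4 in cluster 3 and 0.574 and 0.196 in cluster 8. The fitted difference of interstitial from vascular SMC was -6.12 ± 2.02 with an edgeR adjusted p of 0.270, and it passed with plates in place of lines and with DESeq2. Mural cells over fibroblasts gave 4.15 ± 1.13 (edgeR adjusted p = 0.0607), past the threshold in 6 of 11 alternatives. *Cacnb3*, another beta subunit, carried 61.78 ± 17.01% of the beta level per kilobase in vascular SMC and 85.03% in interstitial SMC, where *Cacnb2* carried 15.2 ± 9.8% and 0.0900%. With the length of the longest transcript in place of merged exons, *Cacnb2* carried 24.9% and 0.164%, and in Cspg4dsRED vascular SMC it was above *Cacnb3* (41.1 against 37.5%).

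**Figure D4:**
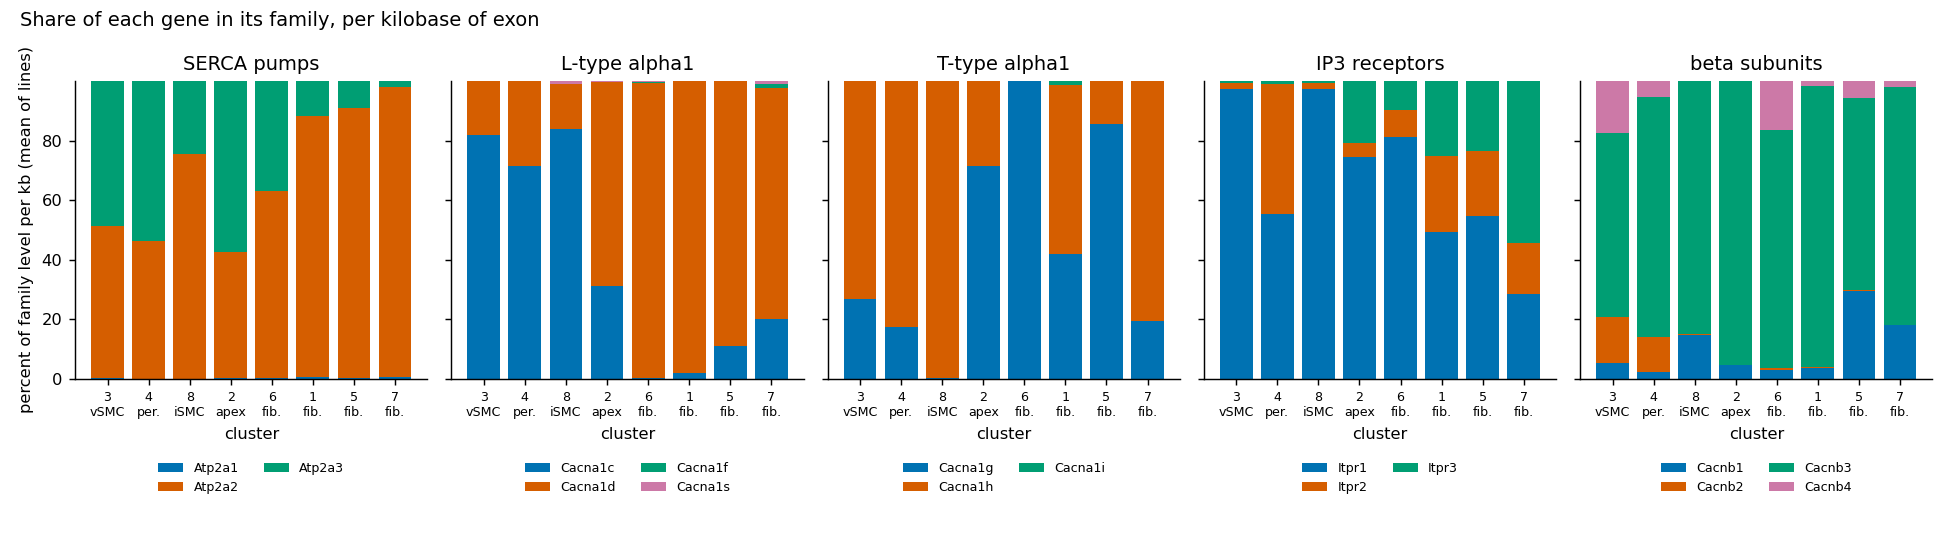
Stacked bars give the percent of each gene in the summed level per kilobase of its family (panels; colours as in the legend under each), as means over lines in each cluster. *Cacna1c* fills 71.5 to 83.8% of the L-type bars of clusters 3, 4 and 8 and *Cacna1d* 98.1% of cluster 1, while *Atp2a3* fills 48.7 to 57.3% of the pump bars in clusters 3, 4 and 2.

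Calcium leaves the store through IP3 and ryanodine receptors. *Itpr1* (chromosome 6, 108213096 to 108551109, plus strand), for an IP3 receptor abundant in smooth muscle, was at 122.6, 124.6 and 109.7 in vascular SMC, 76.9 in interstitial SMC and 62.04 and 29.8 in pericytes. Vascular SMC had the highest mean (118.97 ± 8.06, n = 3), and no other group lay in their range apart from PdgfraGFP cells of cluster 6 at 119.1. That value joins plates at 31.3 and 194.3, and the 5 highest cells of cluster 6 gave 77.3% of its sum. The fibroblast groups outside cluster 6 lay between 14.9 and 53.02. By class the mural lines were at 63.7 to 91.8 and the fibroblast lines at 22.5 to 50.6, without overlap, and the log2 fold change was 1.94 ± 0.36 (edgeR adjusted p = 0.0123). With the line as a block it was 2.12 with an adjusted p of 0.0774, and the call was also lost without Acta2GFP (0.0977) or PdgfrbGFP (0.0676). On the PdgfrbGFP plates where the mural clusters reached 10 cells, mural cells exceeded fibroblasts by 0.40 and 0.64 on the log2(level + 1) scale. On the other plates of Acta2GFP and PdgfrbGFP with both classes the differences were 1.83 to 2.26. Per kilobase *Itpr1* carried 97.4 ± 1.7% of the IP3 receptor level in vascular SMC and 97.3% in interstitial SMC. In pericytes *Itpr2* took 43.8 ± 18.9%, and in cluster 7 *Itpr3* took 54.4 ± 15.1%.

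The ryanodine receptors were sparse. *Ryr2* (chromosome 13, 11553102 to 12106945, minus strand), the cardiac form, was at 5.32, 12.8 and 3.20 in vascular SMC and at 0.365 or lower in every other group. The 3 vascular SMC lines exceeded all other groups, but the PdgfrbGFP plates were at 7.41 and 0.606, the latter below the 0.837 of Acta2GFP cluster 5 on 1 plate. A count was found in 17.7% of cells, and 1 cell gave 35.9% of the sum. The log2 fold change over pericytes was 5.63 ± 2.20 (edgeR adjusted p = 0.378), and that of mural cells over fibroblasts 4.46 ± 1.17 (edgeR adjusted p = 0.0528), which passed in 4 of 11 alternatives. *Ryr3* (chromosome 2, 112631355 to 113217096, minus strand) was at 95.1 in PdgfraGFP cells of cluster 6 and 25.9 in Acta2GFP vascular SMC, and at 2.25 or lower in the other groups of at least 10 cells. In the 9 PdgfrbGFP cells of cluster 6, too few for a group, it was at 57.5, with a count in 5, and over all lines 31.1% of cluster 6 cells held a count. Few cells carried these values, 7 of 26 with 42.997% from the highest in the first and 4 of 29 with 61.8% from the highest in the second. No comparison called *Ryr3*, and its lowest unadjusted edgeR p was 0.358. *Ryr1*, the skeletal form, was at most 0.295% of the family in mural clusters.

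The other genes of calcium handling were taken as a list of 67 (channels, pumps, exchangers, store proteins and calmodulin partners). Of 59 tested between mural cells and fibroblasts, 16 were higher in mural cells and 3 in fibroblasts, with a median log2 fold change of 0.73, against 3.36% and 3.21% of all genes and a median of 0.03. Among those higher in mural cells was *Hrc*, a calcium-binding protein of the store (23.4 ± 6.9 against 0.115 ± 0.065, log2 9.38 ± 0.72). In the other direction stood *Orai2*, a store-operated channel (-5.84 ± 0.83), and *Itpr3* (-5.41 ± 0.94). Between vascular SMC and pericytes, where 0.404% of all genes were higher in vascular SMC, 1 of 55 passed, *Srl*, for the store protein sarcalumenin, at 55.03 ± 22.73 against 0.143 ± 0.203 (log2 9.01 ± 1.30, edgeR adjusted p = 0.0104). It was also the single one of 55 to pass between interstitial SMC, at 0.0850, and vascular SMC (log2 -10.01 ± 1.97, edgeR adjusted p = 0.0333), a test with 1 interstitial SMC line and no spread of its own there, against 0.643% of all genes higher in vascular SMC. Among the 51 tested in fibroblasts, 3 were higher in apex cells and 4 lower, against 3.5% and 3.76% of all genes. *Ano1*, a calcium-activated chloride channel, was at 170.8 ± 64.2 against 6.45 ± 10.67, and *Mrvi1*, a partner of the IP3 receptor in cGMP signalling, at 56.2 ± 14.9 against 4.195 ± 2.243. *Ppp1r1a*, an inhibitor of protein phosphatase 1, was at 0.0115 ± 0.0130 against 3.71 ± 2.09, and *Trpc1*, a cation channel, at 0.109 ± 0.031 against 7.01 ± 3.70.

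Across the 21 groups, which share lines and clusters, the patterns of the 10 genes were compared by Pearson's r of log2(level + 1), as a description. *Pln* and *Ryr2* ran most alike (r = 0.90), then *Cacna1c* and *Cacnb2* (r = 0.88). *Pln* and *Casq2* had r = 0.49, and no pair with *Cacna1d* passed 0.38. Of all genes with a mean of at least 5, those most like *Pln* were *Susd5* (0.943), *Sorbs2* (0.943) and *Xirp1* (0.941). *Casq2* was nearest to *Mylk*, the myosin light chain kinase (0.922), then *Cysltr1* (0.913) and *Tsc22d1* (0.904). *Cacna1c* was nearest to *Mcam* (0.967), *Trarg1* (0.961) and *Lmod1* (0.959), *Cacnb2* to *Pde4c* (0.955), *Inpp4b* (0.947) and *Hey2* (0.944), and *Cacna1h* to *Asb2* (0.939), *Cdh6* (0.933) and *Actg2* (0.920). *Ryr2* ran with *Abcc8* (0.988), *Klhl30* (0.977) and *Bdnf* (0.968), *Atp2a2* with *Pls3* (0.868), *Adamts1* (0.866) and *Klhl30* (0.843), and *Itpr1* with *Slc6a9* (0.861), *Kcnh2* (0.853) and *Syne2* (0.831). For *Cacna1d* the nearest were *Pde1b* (0.799), *Ifitm1* (0.751) and *Srpk2* (0.745), and for *Ryr3* *Dcaf17* (0.673), *Lnpep* (0.670) and *Sbds* (0.669).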

How the data were processed

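The deposited values are raw counts of reads for every gene in every cell, which the authors obtained with featureCounts after alignment to GRCm38 by TopHat2. Samples were matched to table columns by title, and line and cluster were taken from the labels. The 92 ERCC rows, 1.36% of counts, entered neither library sizes nor tests. No cell was removed beyond the authors' own filter, and no doublet caller was run. Symbols, positions and exon lengths came from GENCODE vM21, and promoter windows from RefSeq (GRCm38.p6). The exons of 7 of the 10 genes share 1.36 to 7.32% of their bases with another gene, and no source used here says whether strand was used in counting.

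Levels are means over cells of counts per 500000, and per-kilobase values were divided by the merged exon length. For tests, counts were summed per line and class (at least 10 cells), normalized with TMM, filtered with filterByExpr and fitted with edgeR 4.0.16 (glmQLFit, glmQLFTest, Benjamini-Hochberg) in R 4.3.3. SE was taken as log2 fold change over √F. Alternatives were DESeq2 1.42.0, limma 3.58.1 on means per cell, no filter, a block for the line, sums of at least 3 cells, plates in place of lines, cells thinned to 50000 counts (11 cells below this were left out) and each line left out in turn. The edgeR and DESeq2 fits were tested on simulated counts. Reads carry no molecular identifiers, so intervals cover counting error only.

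The members, lists and tests were chosen with earlier results of these data known. Genes named are the 10 members, the 2 listed genes of each direction with the largest change among those called (1 of them is not reported here), family members, fixed markers and the 3 genes most like each member. The reporter line pairs fibroblast and mural sums (r of their deviations from the class means 0.152 to 0.175 in 3 lines).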

Additional observations from a re-analysis of the deposited data

Results flagged for a closer look

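In groups of 4 lines, a line whose gap to the nearest other passed Dixon's limit was looked for in 30 sets of values (a gene in cluster 5, in all fibroblasts or in clusters 1, 5 and 7), and chance alone would give about 1 in 20. In 4 of them a line stood apart, and a few cells carried each value. *Cacna1h* was at 12.2 in Cspg4dsRED fibroblasts, against 0.298 to 1.79 in the other 3 lines, and at 13.1 in the clusters 1, 5 and 7 of that line, against 0.456 to 2.02. In both, 1 cell at 332.1 counts per 500000 gave 97.5% of the sum, and without it the level was 0.313 and 0.339. In cluster 5 *Cacna1h* was at 2.57 in Acta2GFP, against 0 to 0.124, with 63.5% from 1 cell. *Ryr3* was at 11.01 in PdgfraGFP fibroblasts, against 0.0515 to 0.986. There 10 cells held a count, the highest at 1063, and without that cell the level was 6.32.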

How the results depend on the processing

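Of the fold changes of the 10 genes under alternatives, 95.1% kept their direction. The calls of *Pln* in mural cells and of *Casq2* in apex fibroblasts held in every alternative, and that of *Pln* between interstitial and vascular SMC, with 1 interstitial line, in all 9 that could be fitted. The number of the 10 called between mural cells and fibroblasts (5) was 8 with plates in place of lines, 8 with thinned cells and 8 with limma, and 1 to 6 when a line was left out (1 without PdgfrbGFP, 2 without Acta2GFP). Between vascular SMC and pericytes (1) it was 5 with DESeq2, 4 without the filter, 4 with plates, 3 with thinned cells, 2 with at least 3 cells, 0 with limma, 3 with the line as a replicate block and 1 to 3 without a line (3 without Cspg4dsRED or PdgfrbGFP). Between interstitial and vascular SMC (1) it was 2 with DESeq2, 3 with plates and 1 to 2 without a line, and in apex fibroblasts (1) it was 2 with DESeq2. Leaving out Acta2GFP removes cluster 8, so it gave no value there, and leaving out PdgfrbGFP or Cspg4dsRED leaves 1 pericyte line, assumed to vary like the other groups.

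Calls over all genes are given in percent of the genes that passed the filter in edgeR. Settings with no value below left the share close to the one in brackets. Between mural cells and fibroblasts (6.57%) they were 15.5% with DESeq2, 13.1% with plates, 3.08% with the replicate block and 1.497 to 5.93% without a line (lowest without PdgfrbGFP, 3.33% without Acta2GFP). There limma called 1522 of 19173 genes, against 1259 in edgeR. Between vascular SMC and pericytes (0.668%) they were 5.93% with DESeq2, 2.90% without the filter, 1.95% with plates, 1.22% with thinned cells, 0 with limma, 1.04% with the replicate block, and 0.269% without Acta2GFP, 1.87% without PdgfrbGFP and 2.55% without Cspg4dsRED. Between interstitial and vascular SMC (1.04%) they were 5.92% with DESeq2, 2.90% without the filter, 3.11% with plates, 1.60% with thinned cells, 1.89% with limma, 2.32% without PdgfrbGFP and 4.42% without Cspg4dsRED. In apex fibroblasts (7.26%) they were 15.3% with DESeq2, 11.5% with plates, 10.9% with limma and 1.21 to 7.92% without a line (lowest without Acta2GFP, 3.45% without PdgfraGFP, 4.54% without PdgfrbGFP). The cause of these shifts was not tested.

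The genes whose direction turned were not called in that comparison. In log2 fold change between mural cells and fibroblasts, *Ryr3* was -0.072 with plates and -0.91 to 2.72 without a line, and *Cacna1d* was -0.43 with plates, -0.070 with thinned cells and -0.88 to 0.88 without a line. Between vascular SMC and pericytes, *Ryr3* was -3.05 with the replicate block and -2.97 to 9.53 without a line, *Cacna1c* was -0.019 with limma, *Cacna1d* was -2.57 to 0.21 without a line and *Cacnb2* was -2.27 with at least 3 cells. Between interstitial and vascular SMC, *Cacna1h* was 0.43 with the replicate block, 0.29 with thinned cells, 0.34 with limma and -0.86 to 0.45 without a line. In apex fibroblasts, *Itpr1* was -0.40 with thinned cells and -0.53 with limma, *Cacna1c* was -0.78 with the replicate block and -0.82 to 1.86 without a line, and *Ryr2* was 0.078 without PdgfrbGFP. For these too the cause was not tested. The block changed no call of the 10 genes other than those of *Itpr1*, *Atp2a2* and *Casq2* given above. Of the lines, 2 hold both vascular SMC and pericytes (r of 0.1497 and 0.157), 1 holds both SMC clusters (no r) and 3 hold apex and other fibroblasts (r of 0.0851 to 0.115).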
